A study of Homo sapiens with 4 samples.

Results

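The mitotic G2/M genes described here are 30 genes whose products start, carry out or end mitosis, read through every probe set (the group of short probes that reads 1 transcript) whose platform annotation gives a member's symbol alone. All 30 were measured, by 59 of the 54675 probe sets on the array, and a gene's value is the mean of its probe sets, over 19775 genes in all. RNA came from 4 derivatives of PC-3, epithelial cells long kept in culture that were taken from a bone metastasis of prostate cancer, with 1 Affymetrix array per line. The short-telomere group held mock (basal hTERT, no Cre) and mock/cre+ (basal hTERT, Cre). The long-telomere group held LhTERTL (overexpressed hTERT, no Cre) and LhTERTL/cre+ (basal hTERT, Cre). hTERT, the product of TERT, is the catalytic subunit of telomerase, which lengthens chromosome ends, and Cre is a recombinase that cuts out marked DNA, here the exogenous hTERT. Cells of all lines were grown in dishes to near confluency, with no further treatment. Neither the promoter driving hTERT, the way Cre was given, nor whether a line is 1 clone is stated in the labels.

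Entry into mitosis is driven by CDK1, a kinase that works only when bound to cyclin A or cyclin B and freed of inhibitory phosphate by CDC25 phosphatases. PLK1 and the Aurora kinases then build the spindle, kinesin motors move its parts, and the kinetochore with its checkpoint kinases holds cells in metaphase until the anaphase-promoting complex, started by CDC20, destroys cyclin B and securin. Transcripts of these genes peak together in G2 and mitosis, and so mark dividing cells. In resting cells the DREAM complex represses many of them through a promoter element called CHR (cell cycle genes homology region), and the MuvB core of DREAM later joins B-MYB and FOXM1 to activate them. The factor NF-Y binds CCAAT boxes in the same promoters.

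Promoter windows of 300 bases, from 250 before to 50 after the gene start, were on hand for 24 of the 30 members (RefSeq, GRCh38.p14). AURKA, BIRC5, FOXM1, TPX2, TTK and UBE2C had none in that table. 5 windows are shown as examples, from KIF20A and NUSAP1, among those lowest with long telomeres, to CCNB2, whose probe sets disagree in sign. CCNA2 and CDC25B, with the lowest and highest long minus short differences, are not among them. Each is written along the gene's own strand, and capitals mark the CHR letters TTTGAA and the box CCAAT on either strand (CCAAT reads ATTGG on the other strand). The windows lie at chr15:41332631-41332930 (plus strand) for NUSAP1, chr10:128126374-128126673 (minus strand) for MKI67, chr16:23678639-23678938 (plus strand) for PLK1, chr5:138178862-138179161 (plus strand) for KIF20A and chr15:59104896-59105195 (plus strand) for CCNB2.
NUSAP1: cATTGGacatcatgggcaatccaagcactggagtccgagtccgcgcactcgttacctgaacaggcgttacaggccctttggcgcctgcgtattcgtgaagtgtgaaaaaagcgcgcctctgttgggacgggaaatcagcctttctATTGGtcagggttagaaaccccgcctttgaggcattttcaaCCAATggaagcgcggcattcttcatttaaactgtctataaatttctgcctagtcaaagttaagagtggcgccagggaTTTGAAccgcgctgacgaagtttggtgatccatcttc
MKI67: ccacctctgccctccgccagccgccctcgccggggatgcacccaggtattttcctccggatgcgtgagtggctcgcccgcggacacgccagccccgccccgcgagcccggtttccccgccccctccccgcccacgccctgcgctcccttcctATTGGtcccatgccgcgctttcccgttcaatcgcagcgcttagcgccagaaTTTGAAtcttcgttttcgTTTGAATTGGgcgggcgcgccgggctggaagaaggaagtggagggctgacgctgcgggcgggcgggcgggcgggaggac
PLK1: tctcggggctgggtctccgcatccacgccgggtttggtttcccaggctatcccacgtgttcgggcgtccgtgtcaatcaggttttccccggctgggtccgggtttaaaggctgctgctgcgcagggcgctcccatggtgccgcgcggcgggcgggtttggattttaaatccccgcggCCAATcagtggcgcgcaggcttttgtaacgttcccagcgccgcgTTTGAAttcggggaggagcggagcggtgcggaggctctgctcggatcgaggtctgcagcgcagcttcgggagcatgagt
KIF20A: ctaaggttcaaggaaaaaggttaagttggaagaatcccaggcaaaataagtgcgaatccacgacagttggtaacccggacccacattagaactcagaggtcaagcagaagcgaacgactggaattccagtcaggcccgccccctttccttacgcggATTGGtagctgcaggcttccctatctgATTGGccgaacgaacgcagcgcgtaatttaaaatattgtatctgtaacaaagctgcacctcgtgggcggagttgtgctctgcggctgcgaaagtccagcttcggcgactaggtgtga
CCNB2: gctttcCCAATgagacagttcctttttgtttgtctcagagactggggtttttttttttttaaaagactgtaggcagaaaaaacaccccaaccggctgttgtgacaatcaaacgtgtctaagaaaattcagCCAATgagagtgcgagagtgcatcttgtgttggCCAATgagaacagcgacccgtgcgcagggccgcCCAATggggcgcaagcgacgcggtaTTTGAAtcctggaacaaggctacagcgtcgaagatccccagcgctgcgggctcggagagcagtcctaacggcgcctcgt

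In the PLK1 and CCNB2 windows the CHR letters began at position -29, counted from the gene start, downstream of a CCAAT box that began at -73 in PLK1 and at -54 in CCNB2. MKI67 held CHR letters beginning at -47 and -29, and the nearer ones shared 1 base with a reversed CCAAT box, the only overlap of CHR letters with a CCAAT box in the member windows. NUSAP1 carried its CHR letters after the start, from base 13, and KIF20A held 2 reversed CCAAT boxes, beginning at -94 and -67, and no TTTGAA in this window. Of the 24 members, 16 held TTTGAA in at least 1 window (66.7%), against 15.6% of 15384 genes on the array with a window. A CCAAT box stood in 21 of them (87.5%), against 41.7%, and both stood in 14 (58.3%), against 6.39%. Genes can have several windows, but among the 19 members with exactly 1 the shares were 73.7% for TTTGAA and 84.2% for CCAAT. Of all 22114 genes with exactly 1 window, whether on the array or not, the shares were 16.0% and 36.2%. These are matches of letters, and binding was not measured. The motif map of the promoters shows the 19 members with 1 window, in which 12 of 20 CHR matches and 27 of 38 CCAAT matches began in the 100 bases before the start.

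**Figure D1:**
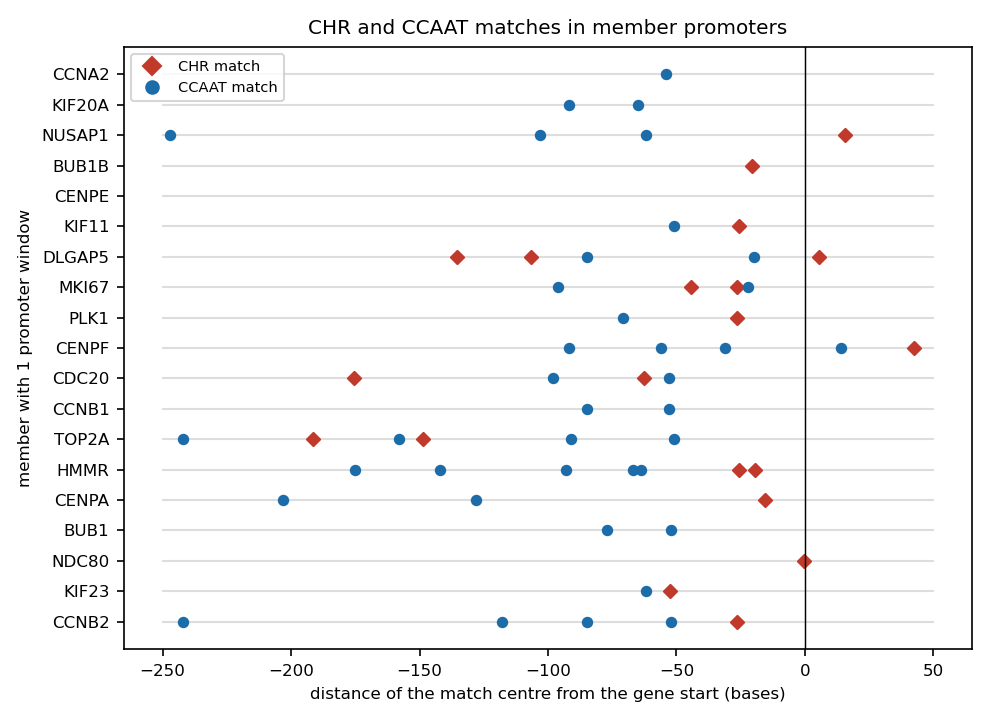
Position of CHR (red diamonds) and CCAAT (blue circles) matches on either strand in the promoters of the 19 members with 1 window, as distance in bases from the gene start, with the gene lowest in long-telomere arrays at the top. CCNA2, KIF20A, CENPE, CCNB1 and BUB1 show no CHR match, and BUB1B, CENPE and NDC80 show no CCAAT match.

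The deposited log2 values were centred on the median of each probe set over the 4 arrays, so differences between arrays can be read but not levels, and the labelled cell type could not be checked against the presence of its markers. The middle 2 arrays of a probe set therefore lie at equal distance on both sides of 0. The first TERT probe set stood at 3.54 in LhTERTL and between -0.16 and 0.12 on the other 3 arrays, and the second at -0.66 in LhTERTL and between -0.06 and 0.10 on the others. Array SDs over all probe sets ran from 0.179 in LhTERTL/cre+ to 0.335 in LhTERTL. Each line has 1 array, so a p-value here speaks of the spread between lines alone, and precision is limited by how few arrays there are. The lines within a group are not replicates of each other. The SE and p of long minus short thus hold the Cre and hTERT differences between lines of a telomere group. Those of Cre minus no Cre hold the telomere and hTERT differences in the same way. With 2 lines a side, the smallest p of an exact two-sided permutation test is 0.333. Markers set for PC-3 cells were the epithelial genes KRT8, KRT18, KRT19, EPCAM and CDH1 with the mesenchymal gene VIM. Their Cre minus no Cre differences ran from -0.83 to 0.20. These markers and those of leukocytes, fibroblasts and endothelium had medians of -0.02 (6 genes), 0.05 (6), -0.02 (6) and -0.24 (5) for long minus short telomeres. For Cre minus no Cre the medians were -0.18, -0.07, -0.00 and 0.11. The part of these markers in the results below was not tested.

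The G2/M genes shared 1 order of the arrays. From lowest to highest this was LhTERTL, mock, LhTERTL/cre+ and mock/cre+ for 22 of the 30 genes, an order found in 7.31% of all genes. Members and the lists below were chosen with earlier results of these data known, so such shares are not independent evidence. The median over the members was -0.48 in LhTERTL, -0.12 in mock, 0.08 in LhTERTL/cre+ and 0.39 in mock/cre+ (log2), while the medians over all genes stayed between -0.01 and 0.01. LhTERTL was the lowest array for 27 members, against 30.5% of all genes, with CCNB2, CDC25B and TTK as the exceptions. Highest was mock/cre+ for 28 members, against 24.1% of all genes, and the exceptions were CENPE and NDC80. From lowest to highest array the members spanned 0.21 to 1.62, with a median of 0.89, against a median of 0.32 over all genes. Those include genes of low signal, since without levels none could be filtered out. In such bulk samples, fewer cells in G2 or mitosis and less RNA per dividing cell cannot be told apart.

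**Figure D2:**
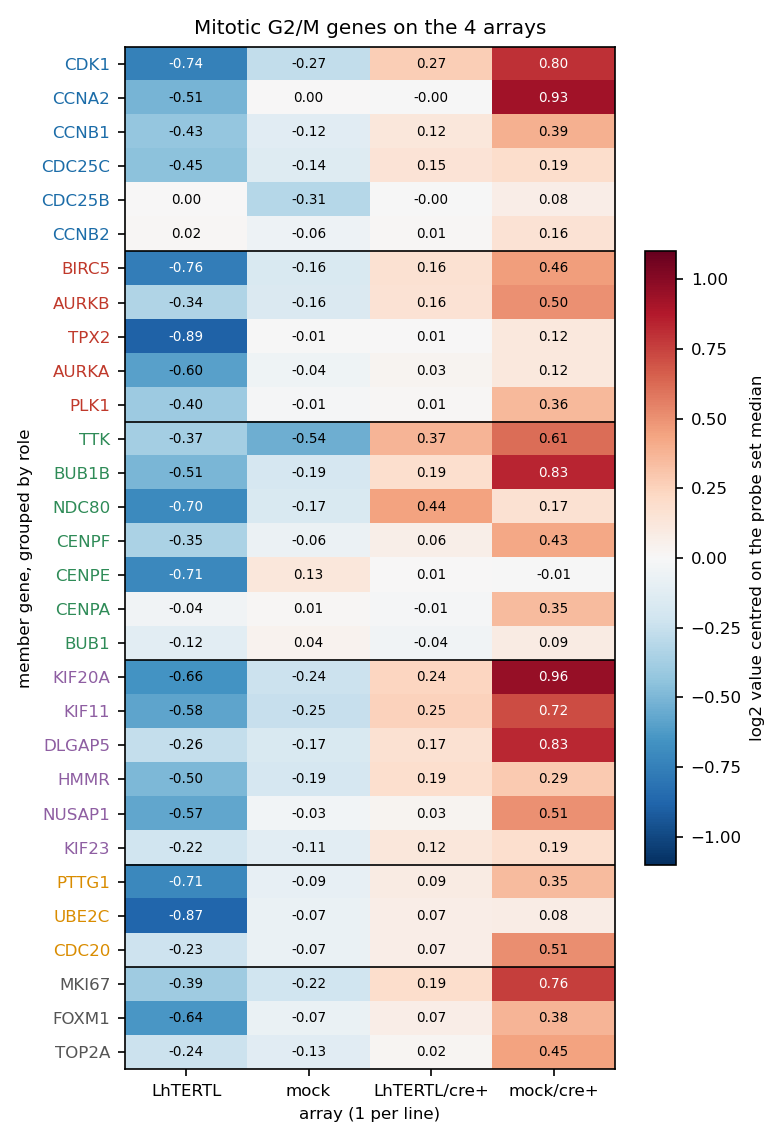
Centred log2 values (printed and as colour) of the 30 members on the 4 arrays, 1 array per line, with genes grouped by role and name colours marking the roles. The LhTERTL column is the lowest for 27 genes and the mock/cre+ column the highest for 28.

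Lines with Cre were set against lines without Cre, since each telomere group holds 1 of each. All 30 members were higher on average with Cre, against 46.2% of all genes, and 0 lower, against 53.8%, with a median difference of 0.56 against -0.02 over all genes. Both Cre arrays lay above both arrays without Cre for 24 members, against 17.4% of all genes, and the other 6 were BUB1, CCNA2, CCNB2, CDC25B, CENPA and CENPE. The reverse held for 0 members, against 20.1%. The largest differences were those of KIF20A, at 1.05 ± 0.30 (SE of the moderated fit, n = 2 arrays per group, as for every ± below), CDK1, at 1.04 ± 0.26, TTK, at 0.95 ± 0.14, KIF11, at 0.90 ± 0.22, and BUB1B, at 0.86 ± 0.26. No member passed the test (limma, two-sided, Benjamini-Hochberg adjusted over 19775 genes, smallest adjusted p = 0.772), and the share of all genes called was 0.00% in each direction. At an unadjusted p under 0.05 (limma), 14 members were higher and 0 lower, against 3.73% and 2.55% of all genes, and the smallest member p was 0.00184, for TTK. Within the long-telomere pair Cre goes with the return from overexpressed to basal hTERT, so both cannot be told apart there. In the short-telomere pair hTERT is basal in both lines.

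Long-telomere lines were set against short-telomere lines to ask whether mitotic genes follow telomere length. On average 29 of the 30 members were lower with long telomeres, against 51.9% of all genes, and the median difference was -0.35 against -0.01 over all genes. CDC25B was the 1 gene that stood higher, at 0.12 ± 0.17, against 48.1% of all genes. None passed the test (limma, adjusted p = 1.0 for every member), the share of all genes called was 0.00% in each direction, and at an unadjusted p under 0.05 (limma) 0 members were found, against 0.339% of genes lower and 0.450% higher. The groups failed to overlap only for BUB1, CCNA2 and CENPA, with the long-telomere lines lower, that is 3 of 30 members against 11.7% of all genes. The reverse held for 0 members, against 11.4%. In 26 of 30 members LhTERTL/cre+, with long telomeres, stood above mock, with short ones, against 47.2% of all genes. Without mock/cre+ the median was -0.01 with 16 members lower, and without LhTERTL it was -0.04 with 20 lower, in groups then no longer matched by Cre status. Without mock it was -0.56 and without LhTERTL/cre+ -0.61.

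**Figure D3:**
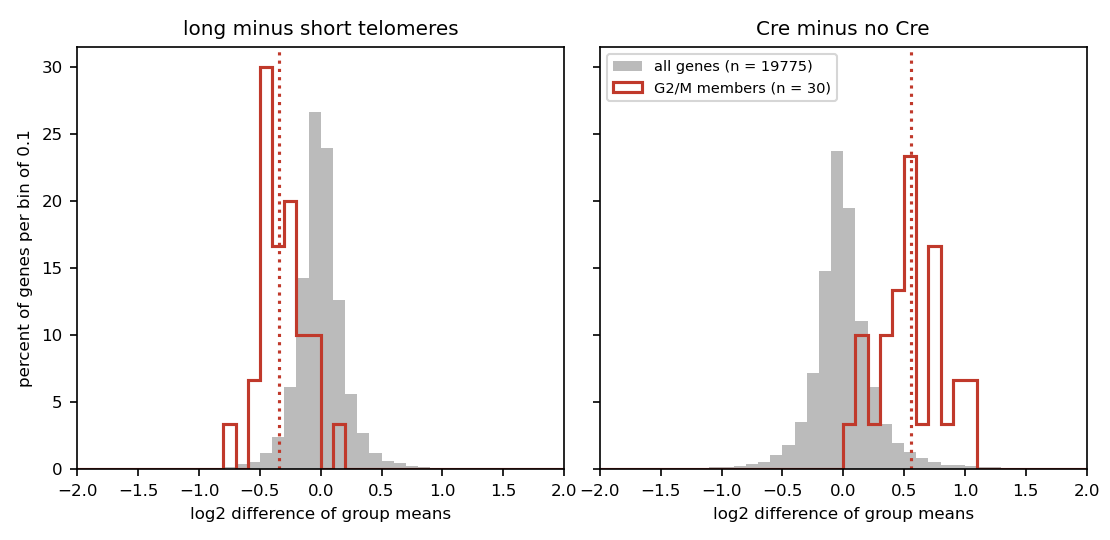
Distribution of log2 differences of group means for the 30 members (red outline, dotted line at the median) and all 19775 genes (grey), as percent of genes per bin of 0.1, for long minus short telomeres (left) and Cre minus no Cre (right). The member medians lie at -0.35 and 0.56, and those of all genes at -0.01 and -0.02.

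Matched by Cre status, 25 members were lower with long telomeres in both pairs, against 22.1% of all genes, and 0 were higher in both, against 20.5%. Without probe sets that can read several transcripts it was 16 of the 23 members still measured. The medians were nearly the same, at -0.32 for LhTERTL minus mock and -0.30 for LhTERTL/cre+ minus mock/cre+. At least 0.5 lower on the log2 scale (1.41-fold) in LhTERTL than mock were AURKA, BIRC5, CCNA2, CENPE, FOXM1, NDC80, NUSAP1, PTTG1, TPX2 and UBE2C, 10 members against 5.55% of all genes, while 0 were at least 0.5 higher, against 7.18%. In LhTERTL/cre+ against mock/cre+ they were BUB1B, CCNA2, CDK1, DLGAP5, KIF20A and MKI67, 6 members against 4.85% of all genes, while 0 were at least 0.5 higher, against 2.95%. CCNA2 alone is on both lists. Some genes lay close to that threshold, among them NUSAP1 at -0.54 and -0.48 and CDK1 at -0.47 and -0.53 in these pairs. These belong to the only 7 members whose pair differences were within 0.1 of each other. Members far apart included TPX2 at -0.88 and -0.11, UBE2C at -0.80 and -0.01, and DLGAP5 at -0.09 and -0.66. The nearly equal medians thus do not mean that single genes differed alike in both pairs. Matched by telomere group, 27 members were higher with Cre in both pairs, against 23.0% of all genes.

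**Figure D4:**
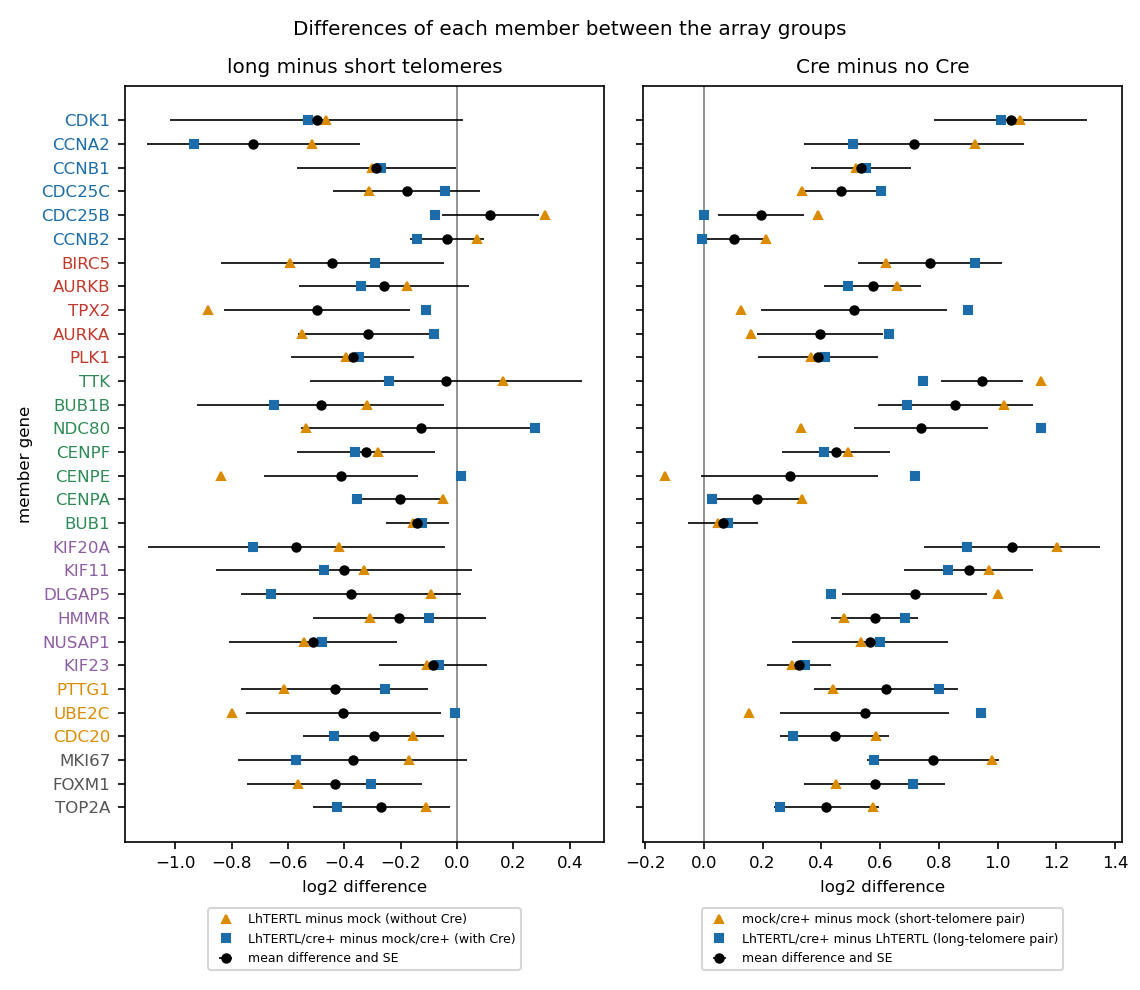
Log2 differences of each member for long minus short telomeres (left) and Cre minus no Cre (right). Black points with bars are the mean difference and its moderated SE (n = 2 arrays per group), and triangles and squares are the 2 matched pairs behind it. On the right all 30 means lie above 0, and on the left 29 lie below 0.

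CDK1 and its activators differed widely among themselves. CDK1, the kinase that drives mitotic entry, stood at -0.74 in LhTERTL, -0.27 in mock, 0.27 in LhTERTL/cre+ and 0.80 in mock/cre+. Both Cre lines were above both lines without Cre, while the telomere groups overlapped. Its 4 probe sets all went the same way, with Cre minus no Cre from 0.92 to 1.15 and long minus short from -0.54 to -0.41, around a gene value of -0.50 ± 0.52. CCNA2, cyclin A2, which serves in S phase and early mitosis, stood at -0.51 in LhTERTL, -0.00 in LhTERTL/cre+, 0.00 in mock and 0.93 in mock/cre+. Here the middle lines were equal to within 0.01, so its long minus short difference, at -0.72 ± 0.38 the lowest of the members, came from the outer arrays. CCNB1, cyclin B1, the main mitotic partner of CDK1, stood at -0.43 in LhTERTL, -0.12 in mock, 0.12 in LhTERTL/cre+ and 0.39 in mock/cre+.

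The other members of this group spanned less. CCNB2, cyclin B2, stood between -0.06 and 0.16 on all arrays as the mean of 3 probe sets, which disagreed in sign both for long minus short, between -0.18 and 0.19, and for Cre minus no Cre, between -0.12 and 0.39. The probe set with the largest SD gave the highest of these Cre differences. CDC25C, a phosphatase that activates CDK1 at mitotic entry, stood at -0.45 in LhTERTL, -0.14 in mock, 0.15 in LhTERTL/cre+ and 0.19 in mock/cre+. CDC25B, the phosphatase that begins this activation, was lowest in mock, at -0.31, with the other 3 arrays between -0.00 and 0.08.

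Among mitotic kinases and their partners, all 5 genes had the shared order of arrays. TPX2, which targets Aurora A to the spindle, stood at -0.89 in LhTERTL, the lowest member value on any array, and at -0.01 in mock, 0.01 in LhTERTL/cre+ and 0.12 in mock/cre+. AURKA, Aurora A itself, stood at -0.60, -0.04, 0.03 and 0.12 on the same arrays. For both genes the other 3 lines lay close together, and only LhTERTL stood apart. AURKA was read so by 2 of its 3 probe sets, at -0.90 and -0.78 in LhTERTL, while the other read -0.11 there.

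BIRC5, survivin, a subunit of the chromosomal passenger complex, stood at -0.76 in LhTERTL, -0.16 in mock, 0.16 in LhTERTL/cre+ and 0.46 in mock/cre+, and the long minus short differences of its 4 probe sets ran from -0.53 to -0.31. AURKB, the kinase of that complex, stood at -0.34, -0.16, 0.16 and 0.50. PLK1, the polo kinase that acts from mitotic entry to cytokinesis, stood at -0.40, -0.01, 0.01 and 0.36. In PLK1 the middle lines lay within 0.02 of each other and both outer lines stood apart, in BIRC5 the widest gap was that below mock, and in AURKB the LhTERTL and mock lines lay closest together. In PLK1 the Cre-matched pairs gave nearly the same difference, at -0.39 and -0.35.

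Kinetochore and checkpoint genes held most of the exceptions. BUB1B, the checkpoint protein BUBR1, stood at -0.51 in LhTERTL, -0.19 in mock, 0.19 in LhTERTL/cre+ and 0.83 in mock/cre+, in the shared order. TTK, the checkpoint kinase MPS1, was lowest in mock, at -0.54, followed by LhTERTL at -0.37, LhTERTL/cre+ at 0.37 and mock/cre+ at 0.61. TTK was thus higher with Cre by 1.15 in the short-telomere pair and 0.75 in the long-telomere pair. Its Cre-matched pairs went opposite ways for long minus short, at 0.16 without Cre and -0.24 with Cre. Their mean of -0.04 ± 0.48, from 1 probe set, is imprecise. NDC80, which ties kinetochores to microtubules, was highest in LhTERTL/cre+, at 0.44, against -0.70 in LhTERTL, -0.17 in mock and 0.17 in mock/cre+.

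CENPE, a kinetochore kinesin, was low in LhTERTL alone, at -0.71, with the other 3 arrays between -0.01 and 0.13. CENPF, a kinetochore protein that accumulates in G2, stood at -0.35 in LhTERTL, -0.06 in mock, 0.06 in LhTERTL/cre+ and 0.43 in mock/cre+. CENPA, the centromeric histone variant, was high in mock/cre+ alone, at 0.35, with the other 3 arrays between -0.04 and 0.01. BUB1, a checkpoint kinase, stood between -0.12 and 0.09 as the mean of 5 probe sets whose long minus short differences disagreed in sign, between -0.46 and 0.14, as did their Cre minus no Cre differences, between -0.06 and 0.35. The probe set with the largest SD gave the highest of these Cre differences too. CENPA and CENPE, read by 1 probe set each, and BUB1 are 3 of the 6 genes whose Cre groups overlapped.

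Spindle proteins and motors all had the shared order of arrays, 6 of 6. KIF20A, a kinesin of cytokinesis, stood at -0.66 in LhTERTL, -0.24 in mock, 0.24 in LhTERTL/cre+ and 0.96 in mock/cre+, the highest member value on any array and the widest span of the members, at 1.62. KIF11, the kinesin Eg5 that separates spindle poles, stood at -0.58, -0.25, 0.25 and 0.72. DLGAP5, a spindle assembly protein, was close together in LhTERTL and mock, at -0.26 and -0.17, and stood at 0.17 in LhTERTL/cre+ and 0.83 in mock/cre+. With DLGAP5 the high mock/cre+ array set the differences, in contrast to TPX2.

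NUSAP1, which bundles spindle microtubules near chromosomes, stood at -0.57 in LhTERTL, -0.03 in mock, 0.03 in LhTERTL/cre+ and 0.51 in mock/cre+. Its Cre-matched pairs were alike, at -0.54 and -0.48, for a mean of -0.51 ± 0.30. HMMR, a hyaluronan receptor that also acts on the spindle, stood at -0.50, -0.19, 0.19 and 0.29 on these arrays. KIF23, the central spindle kinesin MKLP1, spanned little, from -0.22 to 0.19.

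Genes of anaphase and mitotic exit split by which outer array stood apart. UBE2C, the ubiquitin-conjugating enzyme of the anaphase-promoting complex, stood at -0.87 in LhTERTL and at -0.07, 0.07 and 0.08 in mock, LhTERTL/cre+ and mock/cre+. PTTG1, securin, stood at -0.71 in LhTERTL, -0.09 in mock, 0.09 in LhTERTL/cre+ and 0.35 in mock/cre+. CDC20, the activator of that complex, stood at -0.23, -0.07, 0.07 and 0.51. UBE2C and PTTG1 were set off mainly by a low LhTERTL and CDC20 by a high mock/cre+.

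Chromatin and transcription members kept the shared order too. MKI67, the proliferation antigen Ki-67, stood at -0.39 in LhTERTL, -0.22 in mock, 0.19 in LhTERTL/cre+ and 0.76 in mock/cre+, and its 4 probe sets gave Cre minus no Cre differences from 0.63 to 1.15. TOP2A, topoisomerase II alpha, stood at -0.24, -0.13, 0.02 and 0.45, with probe sets that disagreed in sign for long minus short, from -0.56 to 0.11. FOXM1, the transcription factor that drives many of the other members, stood at -0.64 in LhTERTL, -0.07 in mock, 0.07 in LhTERTL/cre+ and 0.38 in mock/cre+. Its long minus short difference was -0.43 ± 0.31 and its Cre difference 0.58 ± 0.24.

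Single lines were then set side by side, with no test, since each has 1 array. LhTERTL/cre+ minus LhTERTL, in which exogenous hTERT was removed with telomeres still long, had a member median of 0.60, and 19 members were at least 0.5 higher, against 6.80% of all genes. In mock/cre+ minus mock, with hTERT basal in both, the median was 0.48 and 14 members were at least 0.5 higher, against 7.70% of all genes. No member was at least 0.5 lower in either, against 7.28% and 4.93% of all genes. The Cre difference was larger in the long-telomere pair for 15 members and in the short-telomere pair for the other 15. NDC80 stood at 1.15 in the long-telomere pair and 0.33 in the short-telomere pair, and UBE2C at 0.94 and 0.15. KIF20A went the other way, at 0.90 and 1.20. LhTERTL/cre+ minus mock, long against short telomeres with basal hTERT in both, and so apart in Cre as well, had a median of 0.21, with 4 members at least 0.5 higher (CDK1, KIF11, NDC80 and TTK, against 2.55% of all genes) and 0 at least 0.5 lower (1.40% of all genes). These comparisons share arrays, so they are not separate evidence of a pattern.

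Members with TTTGAA in a window were set beside members without it, with no test. Their median Cre minus no Cre differences were 0.52 (16 genes) and 0.56 (8 genes), and their median long minus short differences -0.31 and -0.35. With CHR letters, Cre differences ran from 0.10 (CCNB2) to 1.04 (CDK1), and without them from 0.07 (BUB1) to 1.05 (KIF20A). Long minus short differences ran from -0.51 to -0.04 with CHR letters and from -0.72 to 0.12 without them. The genes without these letters thus held both the lowest and the highest long minus short difference. Only TTTGAA was searched, so genes counted as without it were not checked for the CHR in other letters.

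Other genes of mitosis and of replication shared the order of arrays in 22 of 31, 15 of 22 and 22 of 26 genes of the lists that follow. Of all genes, 7.31% had this order, 51.9% were lower on average with long telomeres and 46.2% higher with Cre. Of 31 further kinetochore and checkpoint genes, 28 were lower on average with long telomeres and 30 higher with Cre, with medians of -0.31 and 0.58. MAD2L1, a checkpoint protein, stood at -0.70 ± 0.43 for long minus short, and MIS12, a kinetochore subunit, went the other way at 0.53 ± 0.26. All 22 further spindle and cytokinesis genes were lower on average with long telomeres and higher with Cre, with medians of -0.34 and 0.44. CKAP2L, a spindle protein, stood at -0.56 ± 0.29 and ANLN, anillin of the cleavage furrow, at -0.52 ± 0.50. G1/S and replication genes had wider medians than the mitotic members, at -0.60 for long minus short, with 25 of 26 lower, and 1.19 for Cre minus no Cre, with 25 higher. RRM2, a subunit of ribonucleotide reductase, and UHRF1, which maintains DNA methylation, both stood at -1.13 for long minus short, ± 0.89 and ± 0.91.

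Medians nearer to 0 were found in the remaining lists. Cohesin and condensin genes had medians of -0.20 for long minus short, with 18 of 19 lower, and 0.29 for Cre minus no Cre. The condensin subunits NCAPD2, at -0.56 ± 0.18, and NCAPH, at -0.56 ± 0.48, led them. CDK1 activity regulators had medians of -0.19 and 0.40 over 11 genes, with the phosphatase CDC25A at -0.71 ± 0.48 and WEE1, a kinase that inhibits CDK1, at -0.44 ± 0.27. DREAM and MuvB genes had medians of -0.10 and 0.26 over 13 genes, with MYBL2, which encodes B-MYB, at -0.63 ± 0.55 and TFDP2, a partner of E2F factors, at -0.28 ± 0.23. Anaphase-promoting complex genes stood at -0.09 and 0.06 over 14 genes, with ANAPC7 at -0.29 ± 0.22 and CDC16 at 0.16 ± 0.12.

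CDK inhibitors went the other way for Cre on average. All 5 measured were lower on average with Cre, against 53.8% of all genes, at a median of -0.31. In both telomere-matched pairs 2 were lower with Cre, against 26.8% of all genes. With long telomeres 4 were higher on average, against 48.1%, and the median was 0.15. CDKN1A, p21, stood at 2.09 in LhTERTL, 0.34 in mock, -0.34 in LhTERTL/cre+ and -0.57 in mock/cre+, the reverse of the order of arrays in the mitotic genes. CDKN1C, p57, stood at -0.21 ± 0.12 for long minus short and at -0.01 ± 0.15 for Cre minus no Cre. No gene of these 8 lists passed the test in either comparison (limma, smallest adjusted p = 1.0 for long minus short and 0.772 for Cre minus no Cre). The part of CDKN1A in the mitotic values was not tested.

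**Figure D5:**
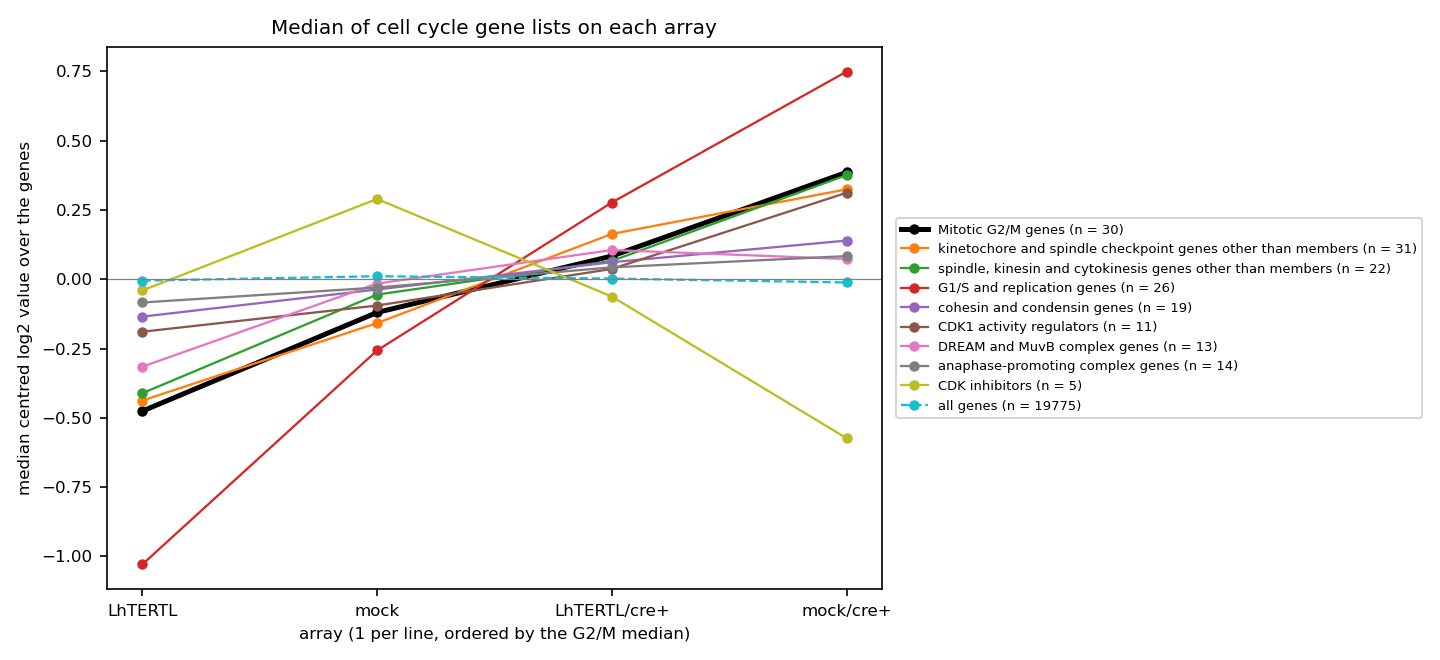
Median centred log2 value of each cell cycle list on the 4 arrays, 1 array per line, with the mitotic G2/M members in bold black and all genes dashed. The members go from -0.48 in LhTERTL to 0.39 in mock/cre+, the G1/S list from -1.03 to 0.75, and all genes stay between -0.01 and 0.01.

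At the level of probe sets, 55 of the 59 were lower on average with long telomeres, against 51.7% of all 54613 tested, and 55 were higher with Cre, against 46.8%. Both Cre arrays lay above both arrays without Cre in 46, against 16.9%, and both long arrays below both short arrays in 8, against 12.7%. No member probe set passed the test in either comparison (limma), and 0.00% of all probe sets did. The shared order of arrays was found in 36, against 6.45%. The authors' deposited table of lower probe sets holds 3 of members, namely 1 each of CCNA2, CDK1 and NUSAP1, that is 5.08% of the member probe sets and 2.33% of that table, which is 0.236% of all probe sets tested. The authors' deposited table of higher probe sets holds 0. They come from the same 4 arrays, and the sources used here do not give how they were selected.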

How the data were processed

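Total RNA of 4 PC-3 derivatives was hybridised to Affymetrix Human Genome U133 Plus 2.0 arrays, 1 per line. The deposited values are log2 intensities from RMA, per the submitters' processing notes (version not given in the sources used here). Every row median of that table is 0 within 1e-05, so rows had been centred and levels are unknown. From the deposited lists of higher and lower probe sets only names were used, since 2 columns of the lower list are exchanged against the series table. These are LhTERTL and mock/cre+, for all 129 probe sets, while the higher list equals the series table in all 124. They are the outer arrays of the shared order, which thus rests on the labels of the series table. That table was used because the first TERT probe set stands at 3.54 in LhTERTL there.

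Groups came from the labels' telomere status, and Cre status from the line names. 62 control probe sets were left out. Of 54613 others, 41091 had 1 symbol in the platform annotation, 1801 several and 11721 none. A gene's value averaged its probe sets that carry that symbol alone. No filter on low values could be set without levels, so all 30 members entered every main fit. All 19775 genes were tested with limma 3.58.1 under R 4.3.3 (lmFit, then eBayes without a trend), two-sided, with Benjamini-Hochberg adjustment at 0.05, for telomere group and for Cre status. The fits were tested on simulated data first, where changes as small as those of the members were not recovered with this number of arrays, so a missed threshold does not show that members did not differ. Lists were described by counts and medians, with no list test. Genes named are the members, TERT and, of each other list, the 2 with the largest absolute long minus short difference. The members and lists were chosen with earlier results of these data known. Promoter letters were searched on both strands with Python 3.11.15. Alternatives were other gene summaries, probe set choices, scalings, variance models and filters, Cre status or telomere group as a block, and each array left out.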

Additional observations from a re-analysis of the deposited data

Results flagged for a closer look

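In 5 members the Cre-matched pairs went opposite ways for long minus short telomeres. These differences between the pairs were not tested, since each value rests on 1 array per line. The other 25 members were lower in both pairs, against 22.1% of all genes, and 0 were higher in both, against 20.5%. Opposite signs were thus rarer among the members than among all genes. CENPE stood at -0.84 for LhTERTL minus mock and at 0.014 for LhTERTL/cre+ minus mock/cre+. In the same order NDC80 stood at -0.54 and 0.28, TTK at 0.16 and -0.24, CDC25B at 0.31 and -0.077, and CCNB2 at 0.072 and -0.14. For CDC25B, CENPE, NDC80 and TTK the value comes from 1 probe set each.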

How the results depend on the processing

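No member was called in any alternative for telomere group or for Cre status (limma), which says nothing about stability, since differences of this size could hardly pass with 4 arrays. The labels carry no replicate numbers. Lines were matched by Cre status only. With that status as a block the median for long minus short was -0.35. Each telomere group holds 1 line with and 1 without Cre, so the block could not change this value and says nothing about stability. Leaving out 1 array in turn, the median for long minus short ran from -0.61 to -0.01. The number of members lower ran from 16, without mock/cre+, to 30, beside 51.9% of all genes with all 4 arrays. For Cre minus no Cre the median ran from 0.36 to 0.75 and the number higher from 28 to 30. The counts with Cre were added as alternatives after seeing the data. Without probe sets that can read several transcripts, 23 members were left and 16 were lower in both Cre-matched pairs. With array SDs equalised, the median for long minus short was -0.25, with 27 members lower and 22 lower in both Cre-matched pairs. The median for Cre minus no Cre was then 0.49, with 30 members higher. In that setting TTK stood at 0.14 and NDC80 at 0.063 for long minus short. BUB1 and CCNB2 did not pass the filter on an SD of at least 0.1. Leaving out 1 array, 23 of 120 member values for long minus short and 2 of 120 for Cre minus no Cre changed sign, and the cause was not tested. The former ran from -0.86 to 0.12 for MKI67, -0.56 to 0.018 for TOP2A, -0.14 to 0.070 for CCNB2, -1.04 to 0.040 for CDK1, -0.077 to 0.31 for CDC25B, -0.48 to 0.12 for CDC25C, -0.59 to 0.068 for AURKB, -0.99 to 0.026 for BUB1B, -0.90 to 0.019 for BIRC5, -0.89 to 0.085 for KIF11, -1.17 to 0.029 for KIF20A, -0.26 to 0.088 for KIF23, -0.61 to 0.54 for TTK, -0.88 to 0.068 for UBE2C, -0.55 to 0.14 for HMMR, -0.88 to 0.12 for DLGAP5 and -0.70 to 0.44 for NDC80. Of genes outside the members it ran from -2.31 to 0.052 for RRM2, -1.04 to 0.0063 for ANLN, -0.23 to 2.21 for CDKN1A and -0.030 to 1.44 for TERT. The latter ran from -0.014 to 0.14 for BUB1 and -0.13 to 0.71 for CENPE.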

Other observations

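A further probe set annotated to both CENPA and SLC35F6 is outside the members. It stood at -0.31 in LhTERTL, -0.01 in mock, 0.01 in LhTERTL/cre+ and 0.42 in mock/cre+, in the order shared by 22 of the 30 members, whereas the CENPA probe set with 1 symbol was high in mock/cre+ alone.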
